A study of Mus musculus with 22 samples.

Results

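The chemokines, interleukins and TNF family members of the mouse choroid plexus (ChP), with their receptors, were examined as a set of 164 genes among the 33964 genes counted. The members are the protein-coding genes whose symbols begin with Ccl, Cxcl, Ccr, Cxcr or Il and a digit, or are Tnf, Tnfsf or Tnfrsf symbols. The annotation holds 169 such genes. Ccl21b, Ccl21c, Ccl27b, Il11ra2 and Tnfsf12 were not among the genes counted, so their levels are not known here. The set holds 22 CC chemokines, 12 CXC chemokines, 17 chemokine receptors, 12 TNF ligands, 20 TNF receptors, 38 interleukins, 42 interleukin receptors and binding proteins, and Il4i1, an amino acid oxidase that shares the symbol pattern only.

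The study asked how the ChP transcriptome changes with the level of the homeoprotein OTX2. RNA of dissected ChP was sequenced from 14 pools of mice, which form 7 groups of 2 pools, A and B. In the conditional model, all mice were Otx2 lox/lox of strain S129 and 3 months old. Cre-Tat, a cell-permeable Cre protein, was injected into the lateral ventricles to delete Otx2. The groups Cre LV and Cre 4V are ChP of the lateral ventricle (LV) and of the fourth ventricle (4V) taken 15 days after Cre-Tat from pools of 5 mice, and Veh LV and Veh 4V are the same tissues after vehicle from pools of 4 mice. Cre-Tat protein and deletion of Otx2 were given together and cannot be told apart. In the constitutive model of strain B6D2, only 4V ChP was collected, from mice labelled Otx2(+/-) (Otx2+/GFP in the study's methods) and wildtype (WT) littermates, both 3 months old, and from mice labelled Otx2(+/AA), whose allele and age are not described in the sources used here. The 2 models also differ in strain and sequencing run, and these cannot be told apart. Otx2(+/-) and Otx2(+/AA) share their WT pools, and the vehicle pools serve both the Cre-Tat comparisons and the comparison of ventricles. LV and 4V ChP were dissected separately from the injected mice, so pools of the 2 ventricles may hold the same animals and their comparisons are not independent. Which LV pool would match which 4V pool is not given in the sources used here.

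Chemokines are small secreted proteins that draw leukocytes along a gradient through G protein-coupled receptors, interleukins signal between leukocytes and tissue cells largely through JAK-STAT or MyD88 pathways, and TNF ligands act through trimeric receptors that lead to NF-kB or cell death. The ChP is an epithelium around a vascular stroma that makes cerebrospinal fluid. It forms the barrier between blood and that fluid, and its stroma holds macrophages, dendritic cells and lymphocytes that enter and act through these same signals.

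The pools held 10555040 to 24826597 counts on genes. In 14 of 16 cases, a file of the conditional model carried a library number other than that of the sample under which it was recorded, and files were joined to pools by that number. Paired in that way, the 2 runs of each pool differed by 1 to 1.04 times the chi-square expected of sampling noise, against 22.8 to 40.9 times for the recorded pairs. Under the recorded attachment, 15 of the 33 member results named here turned around (given with the effects of the processing). Otx2 counted over its whole transcript went against the labels, with 19546 to 23573 normalized counts in the Cre LV and Cre 4V pools, 16896 to 19596 in the Otx2(+/-) pools and 5784 to 8957 in the vehicle and WT pools, so groups are called by their labels. The knockdown was followed in the study by reads on exon 2, which it reported as lower after Cre-Tat in both ventricles and in Otx2+/GFP. The counts per transcript used here do not separate exon 2. The defining epithelial markers were abundant in every pool, and the summed 4V position markers, Hox genes and Meis1, were at 21.6 to 21.9 CPM (counts per 1000000 of the TMM-scaled library) in Veh 4V and 0.696 to 2.25 CPM in Veh LV.

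Most members were scarce in ChP of control mice. In all, 15 members had no count in any pool, 71 had at most 3 counts in each of the 6 vehicle and WT pools, and 39 had at least 10 counts in each. On a scale per transcript length (RPKM, counts per kilobase of transcript and per 1000000 counts on genes), 32 members had a mean of at least 1 and 15 of at least 5 over the control pools, with a median over all 164 members of 0.0744. The 3 members with the highest means were receptors. Il6st, the signalling chain shared by the interleukin-6 family, had the highest mean level at 39.1 RPKM, followed by Il10rb, a chain of the interleukin-10 and interleukin-22 receptors, at 23.8 RPKM and Tnfrsf19 at 20.3 RPKM. Among ligands of Il6st and Il10rb, Il6 had 0 to 2 counts per pool, Il10 had 0 to 2, and Il11, another cytokine of the interleukin-6 family, had 1 to 17.

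Among the ligands, Ccl9, a CC chemokine that binds Ccr1, had the highest mean level at 19.6 RPKM. Its control pools did not agree, with 28.9 and 25.0 RPKM in Veh LV, 25.5 and 17.9 in Veh 4V, 18.1 in WT pool A and 2.49 in WT pool B. The level in WT pool B lay far below the others. Il18, a cytokine of the interleukin-1 family, was at 9.80 RPKM and Cxcl12, the ligand of Cxcr4, at 7.87 RPKM. Il33, an alarmin, followed at 7.38 RPKM. Ccl25, the ligand of Ccr9, was at 4.25 to 5.67 RPKM in the 6 control pools, the narrowest spread among the named ligands relative to its level. No chemokine receptor reached 1 RPKM, and the highest was Cxcr4 with a mean of 0.462 RPKM, while Ccr2 had 0.340 RPKM. Among TNF receptors, Tnfrsf1a, the main receptor of TNF, was at 8.65 RPKM and Tnfrsf12a, the receptor of TWEAK, at 8.05 RPKM. The TNF ligands with the highest means were Tnfsfm13, a readthrough gene of Tnfsf12 and Tnfsf13, at 5.30 RPKM, Tnfsf13 at 3.97 and Tnfsf9 at 1.05. Tnfsf9 lay at 0.0980 to 0.131 RPKM in Veh LV and at 1.03 to 1.92 RPKM in the 4V control pools. The other leading members were Cxcl16, the ligand of Cxcr6, at 3.81 RPKM, Il15, a growth factor of T and NK cells, at 2.26 RPKM, Cxcl13 at 1.44 RPKM and Ccl6 at 0.870 RPKM.

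**Figure D1:**
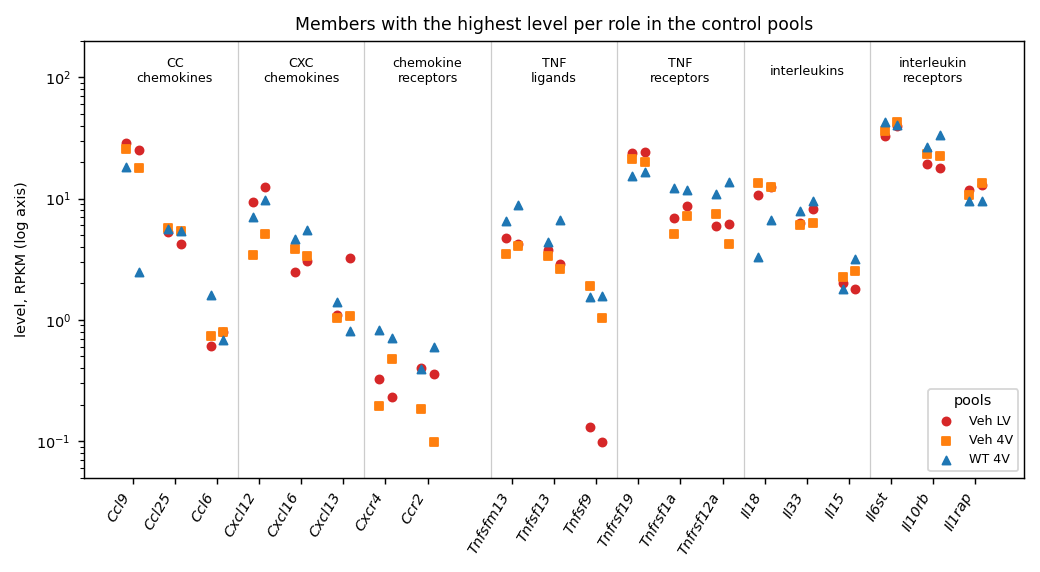
Level in RPKM (log axis) of members with the highest means over the control pools in each role, up to 3 a role, with 1 point per pool of Veh LV, Veh 4V and WT 4V. Chemokine receptors lie below 1 RPKM, interleukin receptors reach 39.1 RPKM on average, and Ccl9 in WT pool B lies at 2.49 RPKM.

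Members were tested with edgeR, and a call is an adjusted p under 0.05 over all genes of the comparison. Of the 164 members, 81 passed the filter on low counts in at least 1 of 5 comparisons and 48 in all 5. With 2 pools a group an exact permutation test cannot go below p = 0.333, so the fit across all genes is the test used. Nothing states that pools came from separate experiments, so p-values measure the spread between these pools. Values per pool are given as normalized counts, which are counts brought to a common library size.

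In LV ChP, pools labelled Cre-Tat held more RNA of 6 members and less of 2 than vehicle pools. Ccl6, Cxcl13, Ccr2, Tnfrsf11b, Il2ra and Il7r were higher and Ccl9 and Il1rap were lower. These are 8.7% and 2.9% of the 69 members tested, where 2.21% of all genes tested were higher and 1.03% lower. In 4V ChP, 15 members were called higher and 2 lower, 22.7% and 3.03% of the 66 tested, beside 5.7% and 4.99% of all genes. The 15 include both Tnfsf13 and the readthrough gene Tnfsfm13, whose reads cannot be told apart. The 6 members that were higher and the 2 that were lower in LV were called in the same direction in 4V. The median log2 fold change of the members tested was 0.386 in LV and 0.463 in 4V, beside 0.00437 and 0.00601 for all genes. These counts and medians cover only members that passed the filter, and 7 of those tested in LV and 15 in 4V had fewer than 10 counts in both vehicle pools. Among these were Il2ra and Tnfrsf11b in LV and Ccl12, Ccl22, Il18r1, Il2ra and Tnfrsf13b in 4V. Scaling by total counts moved the median of all genes by 0.169 in LV and 0.141 in 4V, gave 6 higher and 2 lower members in LV and 21 and 2 in 4V, and raised the higher share of all calls from 68.1% to 89.2% and from 53.3% to 75.6%. In bulk tissue, fewer cells of a type and less RNA per cell cannot be told apart.

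**Figure D2:**
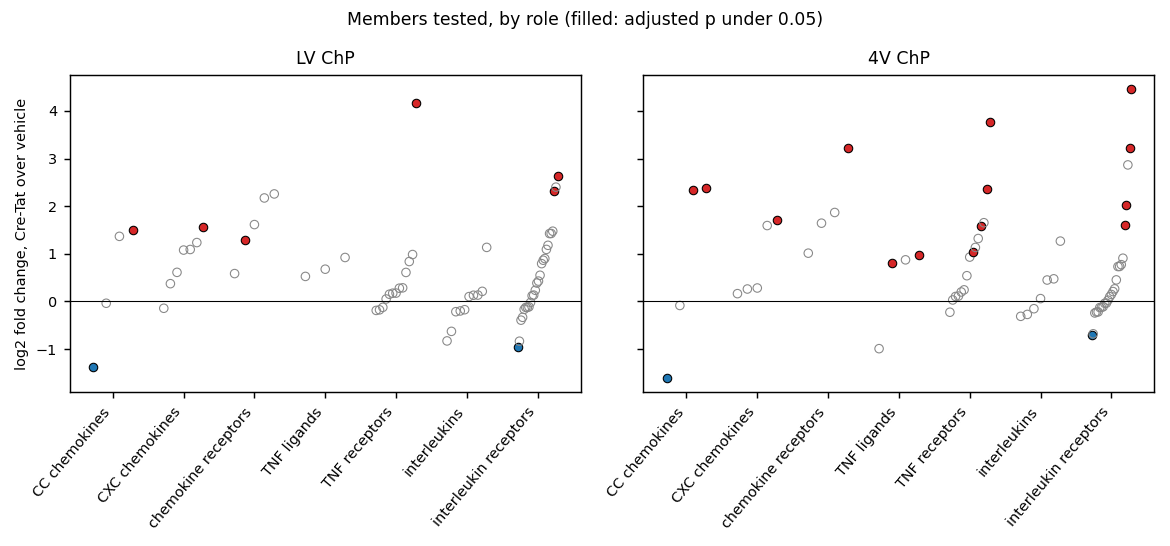
Log2 fold change of Cre-Tat over vehicle for the members tested in LV ChP (left) and 4V ChP (right), by role, with filled red points for higher and filled blue points for lower members at an adjusted p under 0.05. Calls above 0 occur in CC and CXC chemokines and in chemokine, TNF and interleukin receptors of both ventricles. No interleukin is filled, among 10 tested in LV and 7 in 4V. Ccl22 and Il4i1 are not drawn.

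Among CC chemokines, Ccl9 fell in both ventricles. It had 1875 and 1691 normalized counts in Veh LV pools A and B and 709 and 653 in Cre LV. In 4V ChP it had 1531 and 998 in the vehicle pools and 474 and 357 in the Cre-Tat pools. Every Cre-Tat pool lay below every vehicle pool of either ventricle. Its log2 fold change was -1.39 (SE 0.16, edgeR adjusted p = 0.00025) in LV and -1.61 (SE 0.19, adjusted p = 2.0e-05) in 4V.

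The neighbouring gene Ccl6, which encodes another Ccr1 ligand, moved the other way. It had 19.1 and 25.6 normalized counts in Veh LV, 72.8 and 54.3 in Cre LV, 21.2 and 21.1 in Veh 4V and 101 and 112 in Cre 4V. The Cre-Tat pools lay above all vehicle pools. The log2 fold change was 1.51 (SE 0.37, adjusted p = 0.038) in LV and 2.33 (SE 0.32, adjusted p = 0.00011) in 4V. The call in LV was lost with DESeq2 and without Veh LV pool A (log2 fold change 1.31) or Cre LV pool A (1.29). Reads of E230016K23Rik, which overlaps Ccl6, may be included, since nothing states which strand was counted. Ccr1 itself was scarce, with 4 to 16 counts in the 8 pools of the conditional model.

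Both genes lie on the minus strand of chromosome 11 in GRCm38, Ccl9 at 83572919 to 83578636 and Ccl6 at 83587882 to 83593087, with 9245 bases between them. Their promoters are shown because these neighbours moved in opposite directions (RefSeq, GRCm38.p6, 250 bases before to 50 after the start). Capitals mark 2 matches in the Ccl9 promoter. One is to TGANTCA, the pattern searched for AP-1, which allows any base at its centre (here A), and the other is to the NF-kB consensus. The Ccl6 promoter has no match to the motifs searched.
Ccl9, chr11:83578587-83578886, minus strand: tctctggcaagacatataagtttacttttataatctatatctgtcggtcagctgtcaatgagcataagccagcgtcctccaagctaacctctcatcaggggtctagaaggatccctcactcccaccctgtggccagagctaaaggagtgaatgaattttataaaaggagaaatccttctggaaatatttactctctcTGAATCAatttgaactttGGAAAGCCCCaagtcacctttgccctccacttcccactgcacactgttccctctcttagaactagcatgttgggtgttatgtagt
Ccl6, chr11:83593038-83593337, minus strand: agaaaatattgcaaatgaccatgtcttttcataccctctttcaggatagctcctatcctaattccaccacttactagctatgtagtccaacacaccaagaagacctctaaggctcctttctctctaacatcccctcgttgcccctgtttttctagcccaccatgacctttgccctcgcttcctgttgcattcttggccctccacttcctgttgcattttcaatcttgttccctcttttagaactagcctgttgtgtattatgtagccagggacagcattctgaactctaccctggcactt
The longest run of bases that both promoters share is 13 bases long. It is gccctccacttcc.

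Of the other CC chemokines, Ccl12 and Ccl22 were called in 4V. In LV, Ccl12 did not pass the test (log2 fold change 1.37, SE 0.71, adjusted p = 0.428). Ccl22 was below the filter in LV, with no count in either Veh LV pool and 16 and 3 counts in Cre LV pools A and B. Ccl12, a ligand of Ccr2, had 4.24 and 1.76 normalized counts in Veh 4V and 17.6 and 16.3 in Cre 4V (log2 fold change 2.39, SE 0.72, adjusted p = 0.041), and this call was lost when any single pool was left out (fold changes of 1.96 to 3.18) and with DESeq2. Ccl22 is a ligand of Ccr4 made by dendritic cells and macrophages. It had no count in either Veh 4V pool and 27 counts in the Cre 4V pools. Against a floor of 3 counts in each Veh 4V pool, Ccl22 was at least 2.83-fold higher. Without Veh 4V pool A its adjusted p was 0.0862, and DESeq2 gave it no adjusted p and so did not call it. Ccl25 did not pass the test in either ventricle, with a log2 fold change of -0.04 (95% interval -0.64 to 0.57) in LV and -0.08 (-0.59 to 0.42) in 4V.

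Ccr2, the receptor through which inflammatory monocytes follow Ccl2 and Ccl12, was the only chemokine receptor called. It had 50.1 and 46.5 normalized counts in Veh LV and 155 and 81.4 in Cre LV. In 4V ChP it had 21.2 and 10.6 in the vehicle pools and 183 and 123 in the Cre-Tat pools. The groups did not overlap in either ventricle, and the vehicle pools of 4V were the lowest. This gave a log2 fold change of 1.29 (SE 0.32, adjusted p = 0.040) in LV and 3.22 (SE 0.36, adjusted p = 1.1e-05) in 4V. In LV the call was lost without Cre LV pool A (log2 fold change 0.77), with DESeq2 and with its size factors. Cxcr4 had 12.8 and 9.49 normalized counts in Veh LV and 51.3 and 16.6 in Cre LV, and did not pass the test in LV (adjusted p = 0.181) or in 4V (adjusted p = 0.0969). Of the 17 chemokine receptors, only 5 were tested in LV and 4 in 4V. All of these had log2 fold changes above 0, with medians of 1.61 and 1.76, and 4 in each ventricle had an unadjusted p under 0.05. Among all genes, 2124 of 14990 tested in LV and 3227 of 14537 in 4V had one. A receptor can pass the filter through the Cre-Tat pools alone, as Cxcr3 with 1 and 4 counts in Veh LV and 12 and 16 in Cre LV. The signs and medians of these receptors therefore depend in part on the filter.

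Il1rap is described with the interleukin receptors, and its promoter is shown here beside that of Ccr2. The 2 are shown because both were called in both ventricles, Ccr2 as the only chemokine receptor and Il1rap as the only receptor called lower. Capitals mark a TAATCC core, the bicoid-type site bound by OTX proteins, and an interferon response core (GAAANNGAA, here on the opposite strand) in the Ccr2 promoter, and an interferon response core in the Il1rap promoter.
Ccr2, chr9:124101933-124102232, plus strand: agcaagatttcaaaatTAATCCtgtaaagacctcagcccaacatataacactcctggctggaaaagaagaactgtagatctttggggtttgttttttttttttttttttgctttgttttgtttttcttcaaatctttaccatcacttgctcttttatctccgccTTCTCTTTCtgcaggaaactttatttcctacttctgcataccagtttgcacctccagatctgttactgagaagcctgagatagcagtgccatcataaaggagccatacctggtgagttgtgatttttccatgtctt
Il1rap, chr16:26581455-26581754, plus strand: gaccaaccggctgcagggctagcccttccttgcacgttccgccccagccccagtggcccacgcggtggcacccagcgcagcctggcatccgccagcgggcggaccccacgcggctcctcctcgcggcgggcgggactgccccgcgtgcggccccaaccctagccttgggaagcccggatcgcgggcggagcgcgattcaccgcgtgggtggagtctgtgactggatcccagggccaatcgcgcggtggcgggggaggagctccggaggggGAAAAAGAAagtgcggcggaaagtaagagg
The motifs were searched on both strands of 149 promoters of 126 members and 32851 promoters in all, and none of the matches is a measured site. TAATCC was present in 9.4% of the members' promoters and 7.06% of all, TTCNNNGAA (a STAT site) in 13.4% and 8.3%, GAAANNGAA in 13.4% and 8.56%, TGANTCA in 18.8% and 7.81%, and the NF-kB consensus in 12.8% and 5.8%. Of the 21 members called in any comparison, 18 have a promoter in the set searched. Of these, 1 held TAATCC, 3 a STAT site, 3 an interferon response core, 2 a match to TGANTCA and 2 an NF-kB match. Tnfrsf11b, Tnfsf9 and Il10ra have no entry.

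Among CXC chemokines, Cxcl13, which attracts B cells through Cxcr5, was the only one called. It had 27.3 and 83.5 normalized counts in Veh LV and 198 and 126 in Cre LV. In 4V ChP it had 24.0 and 22.9 in the vehicle pools and 93.2 and 61.5 in the Cre-Tat pools. The groups did not overlap, but Veh LV pool B lay above the lower Cre 4V pool. The log2 fold change was 1.56 (SE 0.38, adjusted p = 0.040) in LV and 1.71 (SE 0.36, adjusted p = 0.0043) in 4V. The LV call was lost without Veh LV pool A (log2 fold change 0.95) or Cre LV pool A (1.21), and with DESeq2 size factors, total counts or counts summed over transcripts. Cxcr5 had 0 to 6 counts in the 14 pools. Cxcl12, the most abundant CXC chemokine, did not pass the test, with a log2 fold change of -0.14 (95% interval -0.54 to 0.26) in LV and 0.16 (-0.19 to 0.52) in 4V. Cxcl10, a ligand of Cxcr3 induced by interferon, had 6.38 and 15.2 normalized counts in Veh LV against 25.3 and 20.1 in Cre LV, and 4.24 and 7.04 in Veh 4V against 14.5 and 19.2 in Cre 4V, without passing (adjusted p = 0.447 and 0.137).

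**Figure D3:**
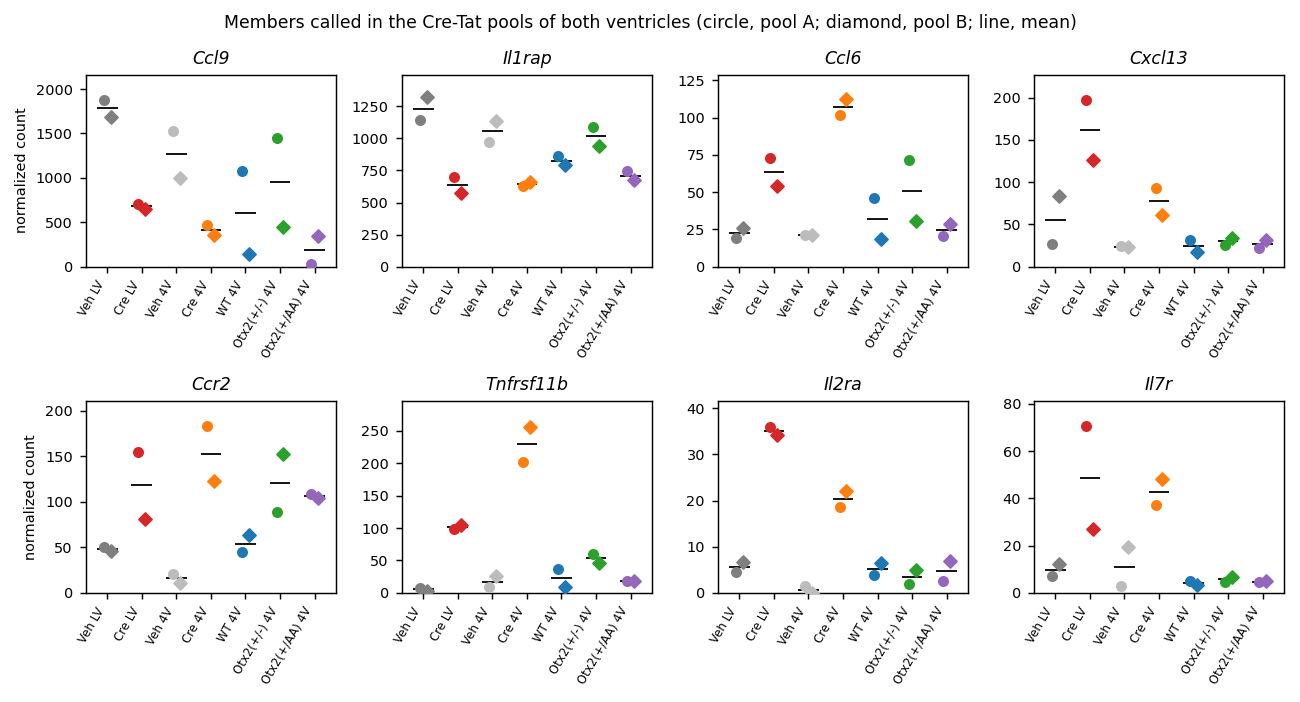
Normalized counts of the 8 members called in the Cre-Tat pools of both ventricles, 1 panel per gene with an axis from 0, with a point per pool (circle, pool A; diamond, pool B) and a line at the group mean. Ccl9 and Il1rap are lower and the other 6 members higher in Cre LV and Cre 4V than in the vehicle pools of the same ventricle, and Ccl9 ranges from 29.5 to 1454 counts within the constitutive model.

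Tnfrsf11b had the largest fold change among members called in LV. It encodes osteoprotegerin, a secreted decoy receptor for the TNF ligand RANKL. It had 8.20 and 2.85 normalized counts in Veh LV, 98.8 and 105 in Cre LV, 8.48 and 26.4 in Veh 4V and 202 and 256.6 in Cre 4V. The lowest Cre-Tat pool held more than every vehicle pool. The fitted log2 fold change was 4.17 (SE 0.43, adjusted p = 0.0001) in LV and 3.78 (SE 0.34, adjusted p = 9.2e-07) in 4V. Tnfrsf11a, which encodes RANK, the signalling receptor for the same ligand, had 17.0 and 42.3 normalized counts in Veh 4V and 94.2 and 78.8 in Cre 4V (log2 fold change 1.59, SE 0.37, adjusted p = 0.0086), a call lost without Veh 4V pool A (1.04) or with counts summed over transcripts. In LV it had 69.2 and 80.6 against 134 and 93.6, and did not pass (log2 fold change 0.61, adjusted p = 0.301). Tnfsf11, the ligand, had 0 to 8 counts in the 14 pools.

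The ligand APRIL and its receptor TACI were called in 4V. Tnfsf13, which encodes APRIL, had 102 and 74.0 normalized counts in Veh 4V and 201 and 145 in Cre 4V (log2 fold change 0.97, SE 0.25, adjusted p = 0.016). Tnfsfm13 is the readthrough gene of Tnfsf12, which encodes TWEAK, and Tnfsf13. It had 102 and 111 against 223 and 150 (log2 fold change 0.81, SE 0.24, adjusted p = 0.032). Reads of these overlapping genes cannot be told apart, and Tnfsf12 was not counted by itself. Tnfrsf13b, which encodes TACI, had 4.24 and 3.52 against 28.0 and 13.5 (log2 fold change 2.35, SE 0.70, adjusted p = 0.038), and Tnfrsf1b, the second TNF receptor, 31.1 and 38.7 against 74.5 and 67.3 (log2 fold change 1.03, SE 0.32, adjusted p = 0.048). Gm12269 overlaps Tnfrsf13b. Each of these 4 calls was lost with DESeq2 and when single pools were left out. That of Tnfsf13 was lost without Veh 4V pool B (0.76) or Cre 4V pool A (0.70), that of Tnfsfm13 without pool A of either group (0.76 and 0.49), that of Tnfrsf13b without Veh 4V pool A (2.51), Veh 4V pool B (2.24) or Cre 4V pool A (1.73), and that of Tnfrsf1b without any of the 4 pools (0.88 to 1.18). In LV these 4 genes did not pass the edgeR test. Log2 fold changes there were 0.68 for Tnfsf13, 0.53 for Tnfsfm13, 0.99 for Tnfrsf13b and 0.84 for Tnfrsf1b. Their edgeR adjusted p were 0.128, 0.203, 0.547 and 0.128. Tnf itself had 0 to 1 counts in the vehicle pools and 5 to 8 in the Cre-Tat pools, below the filter. Tnfsf10, which encodes TRAIL, had 67.4 and 84.4 normalized counts in Veh LV and 152 and 135 in Cre LV and missed the threshold (log2 fold change 0.92, SE 0.24, adjusted p = 0.0534).

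Il1rap was the only interleukin receptor gene called lower in the Cre-Tat pools. It encodes the accessory chain that interleukin-1 and interleukin-33 receptors need for signalling. It had 1142 and 1324 normalized counts in Veh LV and 699 and 571 in Cre LV, and 972 and 1139 in Veh 4V and 633 and 661 in Cre 4V. The Cre-Tat pools of both ventricles lay below all vehicle pools. On the log2 scale the fold change was -0.95 (SE 0.17, adjusted p = 0.0070) in LV and -0.70 (SE 0.14, adjusted p = 0.0026) in 4V. Reads of Gm20319, which overlaps Il1rap, may be included. Il6st and Il10rb, the most abundant receptors, did not pass, with log2 fold changes of 0.13 and -0.17 in LV and 0.21 and -0.22 in 4V. In the same comparisons the TNF receptors with the highest levels did not pass either, with -0.12 and 0.11 for Tnfrsf19, 0.15 and 0.24 for Tnfrsf1a and 0.29 and 0.20 for Tnfrsf12a.

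In all, 4 interleukin receptor genes of lymphoid and myeloid cells were called higher in Cre 4V, and Il2ra and Il7r also in Cre LV. Il2ra, the high-affinity chain of the interleukin-2 receptor carried by regulatory and activated T cells, had 4.56 and 6.64 normalized counts in Veh LV and 36.0 and 34.1 in Cre LV (log2 fold change 2.63, SE 0.54, adjusted p = 0.017). In 4V it had 1 count over the vehicle pools and 41 over the Cre-Tat pools, a ratio of 26.1 with a 95% counting interval of 4.42 to 1054. No vehicle pool overlapped a Cre-Tat pool. Il7r, the interleukin-7 receptor of T cells and innate lymphoid cells, had 7.29 and 12.3 normalized counts in Veh LV, 70.5 and 27.1 in Cre LV, 2.83 and 19.4 in Veh 4V and 37.3 and 48.1 in Cre 4V. Its log2 fold change was 2.32 (SE 0.54, adjusted p = 0.032) in LV and 2.03 (SE 0.56, adjusted p = 0.025) in 4V. Il10ra, the ligand-binding chain for interleukin-10, had 24.0 and 21.1 normalized counts in Veh 4V and 75.6 and 63.4 in Cre 4V (log2 fold change 1.61, SE 0.35, adjusted p = 0.0059). Il18r1, a chain of the interleukin-18 receptor, had 3 counts over the Veh 4V pools and 46 over the Cre 4V pools. This is a ratio of 9.75 with a counting interval of 3.13 to 49.0. In LV, Il10ra (log2 fold change 1.43, SE 0.48, adjusted p = 0.156) and Il18r1 (2.40, SE 0.65, adjusted p = 0.065) did not pass the edgeR test. For both genes, both Cre LV pools lay above both Veh LV pools. Il2 had 0 to 3 counts in the 14 pools.

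Several of these calls rested on single pools. In LV, Il2ra lost its call without Veh LV pool A (log2 fold change 2.38) or Cre LV pool A (2.60), and Il7r without the same pools (1.98 and 1.48). In 4V, Il7r lost its call without Veh 4V pool A (1.15) or Cre 4V pool B (1.84), and Il18r1 without Veh 4V pool A (2.68) or Cre 4V pool A (2.42). Il2ra, Il7r and Il18r1 lost their 4V calls with DESeq2. Il7r and Il10ra lost theirs in 4V when all groups of the run were fitted together, and Il7r lost its call in both ventricles with counts summed over transcripts. The number of members called in LV was 4 without Veh LV pool A, 3 without Cre LV pool A and 13 without either pool B, and in 4V it was 11 without pool A of either group.

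Neither edgeR nor DESeq2 called an interleukin gene in the Cre-Tat pools, among 10 tested in LV and 7 in 4V. Of all genes tested, 2.21% were called higher and 1.03% lower in Cre LV, and 5.7% and 4.99% in Cre 4V. At these shares, 0 calls among so few genes do not set the interleukins apart. With an unadjusted p under 0.05, 1 interleukin passed in each ventricle, Il16 in both cases, a ligand of CD4. Il1b, the cytokine that signals through Il1rap, had 48.3 and 19.9 normalized counts in Veh LV and 55.9 and 16.6 in Cre LV, and 33.9 and 15.8 in Veh 4V and 55.9 and 15.4 in Cre 4V. Pool A lay above pool B in each of these 4 groups, and the groups overlapped. Il18 and Il33 had log2 fold changes of -0.17 and 0.13 in LV and -0.31 and -0.15 in 4V.

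In all, 9 members were called higher in 4V and not in LV. Of all genes tested, 5.7% were called higher in 4V and 2.21% in LV. The 9 include both Tnfsf13 and the readthrough gene Tnfsfm13. Ccl22, among the 9, was not tested in LV. The difference between ventricles was not detected. The interaction of the Cre-Tat label and the ventricle was called for none of the 79 members tested with edgeR or with DESeq2, and 0.00643% of all genes were called. With an unadjusted p under 0.05 there were 3, which were Ccr2 (log2 difference of LV minus 4V -1.92, SE 0.54), Il20rb (2.10, SE 0.77) and Il11 (-3.43, SE 1.2). Of the members, 61 were tested in both ventricles.

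Markers of leukocytes, ependyma and, in LV, neurons and glia moved with most of these members, and markers of the epithelium moved against most of them. The summed level of the 9 epithelial markers was 220702 to 229193 CPM in Veh LV and 122195 to 163455 in Cre LV, and 183459 to 217738 in Veh 4V and 85941 to 97703 in Cre 4V, with 5 of 9 lower in LV and 9 of 9 in 4V. The 13 macrophage and microglia markers summed to 81.6 to 91.9 CPM in Veh LV against 136 to 142 in Cre LV, and 60.2 to 64.7 in Veh 4V against 89.4 to 119 in Cre 4V, with 3 of 13 tested higher in LV and 6 of 12 in 4V. None of these macrophage markers was at 0 in both pools of a group. T and NK cell markers summed to 3.13 to 3.15 CPM in Veh LV against 7.89 to 12.6 in Cre LV and 2.30 to 2.95 in Veh 4V against 5.44 to 8.25 in Cre 4V, with 2 of 5 tested higher in LV (Cd3g and Cd6), 0 of 4 in 4V (3 with an unadjusted p under 0.05, and 0 with DESeq2), and Cd5 and Cd6 at 0 in the vehicle pools. B and plasma cell markers summed to 2.34 to 7.01 CPM in Veh LV against 14 to 68.3 in Cre LV and 1.48 to 2.12 in Veh 4V against 8.11 to 24.8 in Cre 4V. Jchain and Ighm were the 2 of these called in each ventricle, and Cd79a and Ms4a1 were at 0 in the Veh 4V pools. Dendritic cell markers were at 7.85 to 8.23 CPM in Veh 4V and 13.7 to 16.0 in Cre 4V, with 3 of 4 tested higher, and overlapped in LV, where 0 of 6 were called with edgeR or DESeq2 and 4 had an unadjusted p under 0.05. Neutrophil markers were at 1.16 CPM in Cre 4V pool B and 23.9 in pool A, and none was tested. Ependymal markers were at 137 to 148 CPM in Veh LV against 214 to 268 in Cre LV and 131 to 163 in Veh 4V against 266 to 278 in Cre 4V, with 2 of 4 tested higher in each ventricle. Fibroblast and mural markers overlapped, at 793 to 848 CPM in Veh LV against 761 to 838 in Cre LV and 674 to 719 in Veh 4V against 626 to 695 in Cre 4V, with 1 of 8 higher and 1 lower in each ventricle. Neuron and glia markers were at 70.8 to 108 CPM in Veh LV against 125 to 135 in Cre LV, with 3 of 7 tested higher, and overlapped in 4V, where 2 of 7 were higher and 1 lower. Endothelial markers were at 229 to 271 CPM in Veh LV against 272 to 302 in Cre LV, where 0 of 8 were called with edgeR or DESeq2 and 1 had an unadjusted p under 0.05, and overlapped in 4V, with 1 of 8 higher. Blood markers were at 0.149 to 0.478 CPM in Veh LV, 0.12 in Cre LV pool A and 9.13 in Cre LV pool B, and at 0.369 to 0.519 in Veh 4V against 0.869 to 1.81 in Cre 4V, and none was tested. The part of these markers in the changes of the members was not tested.

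**Figure D4:**
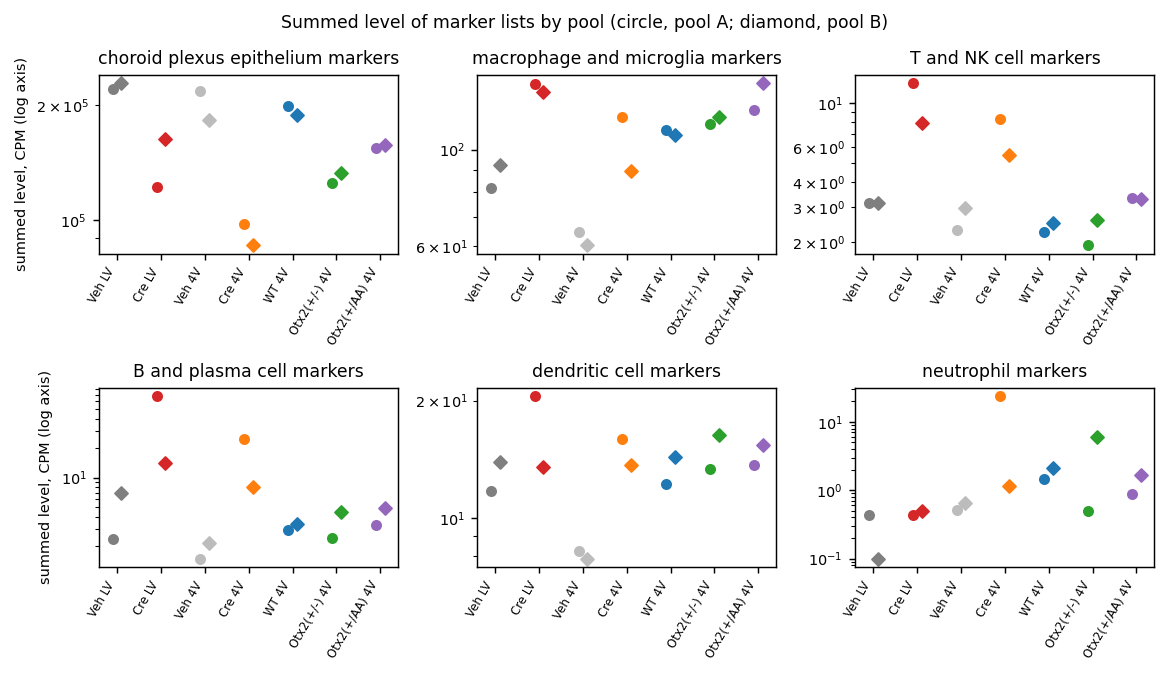
Summed level of 6 marker lists in CPM (log axis), with a point per pool (circle, pool A; diamond, pool B) in the 7 groups. Epithelial markers are lower, and macrophage, T and NK, and B and plasma cell markers higher, in Cre LV and Cre 4V than in the vehicle pools of the same ventricle, and neutrophil markers stand at 23.9 CPM in Cre 4V pool A.

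In the constitutive model, 2 members were called in Otx2(+/-) and both were lower, 3.12% of the 64 tested, where 1.74% of all genes were lower and 1.79% higher. Tnfsf9, which encodes the ligand of the T cell costimulator 4-1BB, had 39.8 and 37.6 normalized counts in WT and 3.85 and 8.82 in Otx2(+/-), while the Otx2(+/AA) pools had 33.1 and 39.8. Both Otx2(+/-) pools lay below every other constitutive pool. The log2 fold change was -2.59 (SE 0.47, adjusted p = 0.023) and the call was lost without Otx2(+/-) pool A (-2.12) or with counts summed over transcripts. Both Cre 4V pools also lay below both Veh 4V pools for Tnfsf9, without passing the test (log2 fold change -0.99, SE 0.45, adjusted p = 0.199). Gm11110 overlaps Tnfsf9, and its receptor gene Tnfrsf9 had 0 to 6 counts in the 14 pools. Il17re, the epithelial receptor chain for interleukin-17C, had 250 and 253 normalized counts in WT, 114 and 124 in Otx2(+/-) and 230 and 268 in Otx2(+/AA). Its log2 fold change of -1.08 (SE 0.16, adjusted p = 0.0096) was past the threshold whichever pool was left out. The number of members called rose to 5 without WT pool A and to 8 without WT pool B. Of the epithelial markers, 2 of 9 were lower in Otx2(+/-), and their sum was 124978 to 133156 CPM against 188478 to 198934 in WT. Fibroblast and mural markers were at 1399 to 1545 CPM in Otx2(+/-) against 1166 to 1237 in WT, with 1 of 8 higher, and neuron and glia markers at 114 to 160 against 89.2 to 95.9, with 1 of 7 higher. The part of these markers in the result was not tested.

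In Otx2(+/AA), edgeR and DESeq2 called none of the 64 members tested, and 7 had an unadjusted p under 0.05. Of all genes, 0.173% were called higher and 0.173% lower, and scaling by total counts moved the higher share of these calls from 50% to 73.7% and the median of all genes by 0.12. Without WT pool A 1 member was called and without WT pool B 6 were. The lowest adjusted p were those of Ccl28, a mucosal chemokine, and Ccr2. Ccr2 had 44.8 and 63.3 normalized counts in WT, 88.6 and 153 in Otx2(+/-), and 108 and 104 in Otx2(+/AA). Every mutant pool lay above both WT pools, and the log2 fold change was 1.16 (SE 0.31, adjusted p = 0.0924) in Otx2(+/-) and 0.97 (SE 0.26, adjusted p = 0.166) in Otx2(+/AA), against the same WT pools. Macrophage and microglia markers summed to 108 to 111 CPM in WT, 114 to 119 in Otx2(+/-) with 1 of 12 tested higher, and 123 to 143 in Otx2(+/AA), where 0 of 12 were called with edgeR or DESeq2 and 4 had an unadjusted p under 0.05. T and NK cell markers were at 2.25 to 2.48 CPM in WT, 1.92 to 2.57 in Otx2(+/-) and 3.29 to 3.33 in Otx2(+/AA), and their part and that of the macrophage markers in the levels of Ccr2 was not tested.

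Of the 8 members called in both ventricles after Cre-Tat, Il2ra and Il7r were too scarce to be tested in the constitutive model, and the other 6 were tested there and not called with edgeR or DESeq2. Ccl9 had 1079 and 138 normalized counts in WT, 1454 and 442 in Otx2(+/-) and 29.5 and 344 in Otx2(+/AA), a spread within groups that left a log2 fold change of 0.64 (SE 0.76) and -1.74 (SE 0.81). Ccl6 had 45.8 and 18.2 in WT and 71.3 and 30.4 in Otx2(+/-), with pool A above pool B as for Ccl9. Tnfrsf11b had 36.8 and 9.66 in WT, 60.7 and 46.1 in Otx2(+/-) and 18.8 and 17.9 in Otx2(+/AA), and its log2 fold change in Otx2(+/-) was 1.18 (SE 0.51, adjusted p = 0.259). The interaction of the knockdown label and the model in 4V was called for 1 of 76 members (1.32%), where 1.61% of all genes were called. An unadjusted p under 0.05 was reached by 17 members. Differences were above 0 for 59 of the 76, with a median of 0.678, beside 0.00721 for all genes. These values cover only members that passed the filter. The member called was Il1rap, whose difference lay below 0. Il1rap had 859 and 795 normalized counts in WT and 1088 and 942 in Otx2(+/-) (log2 fold change 0.30, SE 0.12, adjusted p = 0.246). The difference of the conditional minus the constitutive log2 fold change was -1.01 (SE 0.18, adjusted p = 0.016), and the call was lost without Veh 4V pool B (-0.89), WT pool B (-0.95) or Otx2(+/-) pool A (-0.89).

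**Figure D5:**
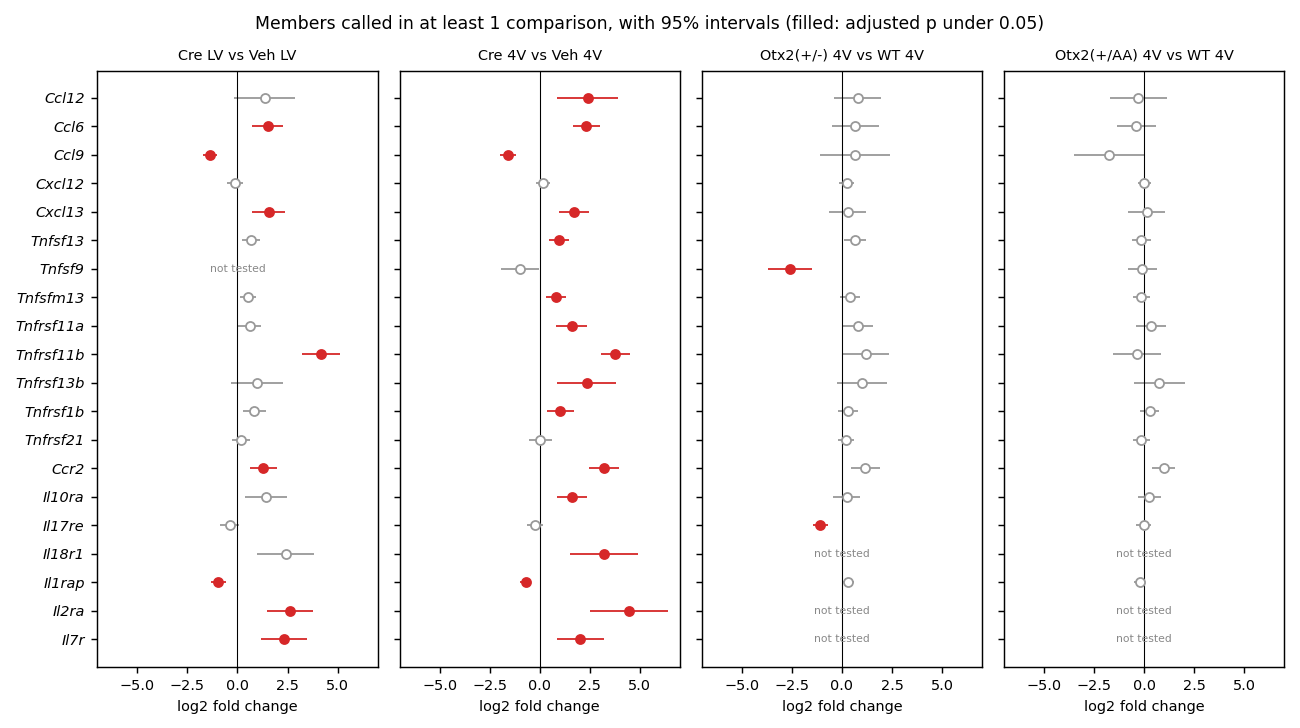
Log2 fold change with 95% interval of each member called in at least 1 comparison, that between ventricles included, for Cre-Tat over vehicle in LV and 4V and for Otx2(+/-) and Otx2(+/AA) over WT, with filled red points at an adjusted p under 0.05. Tnfsf9 and Il17re are the 2 filled points of the constitutive model. Ccl22, which had no count in the Veh 4V pools, is not drawn.

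Between the vehicle pools of the 2 ventricles, 4 members were higher and 1 lower in LV among 56 tested (7.14% and 1.79%), where 3.49% of all genes were higher and 4% lower. Scaling by total counts, which shifted the median of all genes by -0.191 and the higher share of all calls from 46.6% to 17.1%, gave 2 higher and 3 lower members. Cxcl12, which guides Cxcr4-bearing cells and is made by stromal cells, had 1130 and 1588 normalized counts in Veh LV and 383 and 530 in Veh 4V, without overlap (log2 fold change 1.57, SE 0.18, adjusted p = 0.00011). Tnfsf9 had 3.64 and 2.85 in Veh LV and 49.5 and 24.7 in Veh 4V (log2 fold change -3.48, SE 0.63, adjusted p = 0.0047), a call lost without Veh 4V pool A (-2.86). Its level in the Cre LV pools was as low as in Veh LV, at 1.53 and 5.25. Tnfrsf21, which encodes death receptor DR6, had 135 and 195 in Veh LV and 82.0 and 68.7 in Veh 4V (log2 fold change 1.12, SE 0.25, adjusted p = 0.016), a call lost without Veh LV pool B (0.85) or Veh 4V pool B (1.00). Tnfrsf11a (log2 fold change 1.37, SE 0.39, adjusted p = 0.048) lost its call without Veh LV pool B (1.28) or Veh 4V pool A (0.83) and with DESeq2 or total counts, and Ccr2 (1.56, SE 0.44, adjusted p = 0.048) without any of the 4 pools (1.18 to 2.19) and with DESeq2 or total counts. Of 12 tested macrophage markers 1 was higher in Veh LV, with sums of 81.6 to 91.9 CPM in Veh LV and 60.2 to 64.7 in Veh 4V. Of 8 endothelial markers 3 were higher, with 229 to 271 CPM in Veh LV and 154 to 174 in Veh 4V, and of 8 fibroblast and mural markers 1 was (5 with an unadjusted p under 0.05), with 793 to 848 and 674 to 719 CPM. These 3 sums did not overlap between the ventricles, and their part in the results, that for Cxcl12 included, was not tested.

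Genes of the same pathways that the symbols leave out were examined as 3 lists. Of 42 related cytokine and chemokine genes counted, 1 of 23 tested was lower in Cre LV, where 1.03% of all genes were lower. In Cre 4V, 3 were higher and 1 lower of 24 tested, where 5.7% of all genes were higher and 4.99% lower. The lower gene was Ngfr in both, the p75 neurotrophin receptor of the TNF receptor family, with 405 and 373 normalized counts in Veh LV, 63.6 and 83.1 in Cre LV, 924 and 805 in Veh 4V and 202 and 196 in Cre 4V. Its log2 fold change was -2.41 (SE 0.21, adjusted p = 1.7e-05) and -2.12 (SE 0.16, adjusted p = 8.8e-08). In Otx2(+/-) it was -0.63 (SE 0.20, adjusted p = 0.142), and the difference from the conditional model was called (-1.50, adjusted p = 0.013). The higher genes in Cre 4V were Eda2r, the ectodysplasin-A2 receptor (1.62, adjusted p = 0.0022), Csf1r, the macrophage growth factor receptor (0.75, adjusted p = 0.016), and Csf3r, the granulocyte growth factor receptor (2.50, adjusted p = 0.027). Of 23 tested in Otx2(+/-), Eda2r (1.48, adjusted p = 0.028) and Lifr (0.58, adjusted p = 0.044) were higher. Crlf2, the receptor of the cytokine TSLP, was lower (-1.24, adjusted p = 0.033). Of all genes, 1.79% were higher and 1.74% lower in Otx2(+/-). In Otx2(+/AA) 0 of 23 were called with edgeR or DESeq2, and 2 had an unadjusted p under 0.05. Between vehicle pools, Csf1r was higher (0.67, adjusted p = 0.037) and Ngfr (-1.16, adjusted p = 0.00018) and Ackr4 (-0.84, adjusted p = 0.0030) lower in LV. These were among 21 tested, where 3.49% of all genes were higher and 4% lower.

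The other lists hold signalling genes downstream of the receptors. Of 31 genes between TNF or interleukin-1 receptors and NF-kB, 0 of 30 tested were called in Cre LV with edgeR or DESeq2 (4 with an unadjusted p under 0.05), and of 31 tested in Cre 4V, Irak1 (0.54, adjusted p = 0.020) and Tnip1 (0.60, adjusted p = 0.031) were higher. These 2 of 31 are a share near the 5.7% of all genes called higher in Cre 4V. In Otx2(+/-) and Otx2(+/AA) edgeR called 0 of 31 (3 and 1 with an unadjusted p under 0.05, and 0 and 0 with DESeq2), and Irak3, an inhibitor of interleukin-1 signalling, was higher in Veh LV than in Veh 4V (1.36, adjusted p = 0.016). Of the JAK-STAT genes, 1 of 22 tested was higher in Cre LV and 1 of 21 in Cre 4V, beside 2.21% and 5.7% of all genes, and none was lower. In Otx2(+/-) and Otx2(+/AA) edgeR called 0 of 21 JAK-STAT genes tested (4 and 2 with an unadjusted p under 0.05, and 1 and 0 with DESeq2), and Cish (-1.01, adjusted p = 0.0042) and Stat6 (-0.46, adjusted p = 0.044) were lower in Veh LV than in Veh 4V.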

How the data were processed

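RNA-seq libraries of 14 pools of mouse choroid plexus were analysed, 2 pools for each of 7 groups. The authors deposited 22 files of counts, whole numbers of reads on 95533 Ensembl transcripts, without normalization. Per the labels, ribosomal RNA was depleted and strand-specific libraries were made, while the study's methods describe PolyA+ selection. The submitters' processing notes name Bowtie 0.12.9, HTSeq 0.5.3, DESeq 1.8.3 and build mm10, and the strand used for counting is not given in the sources used here. Files of the conditional model were joined to pools by library number and their 2 runs summed. Transcripts were matched to GENCODE vM21 (82807 of them, 89.5% of counts), and the transcript with most counts over the files stood for each gene, because a read may be counted on several transcripts. Counts per gene had been planned for, and the sum over transcripts is an alternative.

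The pools held 10555040 to 24826597 counts on genes, and the spread of 2 pools sets the precision (biological coefficient of variation 0.114 to 0.152). Counting intervals and floors cover counting error only. Each comparison used its own groups in edgeR 4.0.16 (R 4.3.3), with filterByExpr, TMM, the quasi-likelihood test and Benjamini-Hochberg adjustment over all genes, and interactions used 4 groups. Normalized counts are counts scaled to the mean TMM library size, 19069870. RPKM divides by the length of the representing transcript and by counts on genes. The alternatives were DESeq2 1.42.0, its size factors or total counts for scaling, a filter at a mean count of 10 or none, a fit of a whole run, the pool letter as a block, counts summed over transcripts, the recorded attachment, and each pool left out. Lists, promoters and figures used pandas 2.3.3, NumPy 2.4.6, SciPy 1.17.1 and matplotlib 3.10.9 under Python 3.11.15. The procedure was tested on simulated data. Members named are those called and the 3 with the highest RPKM per role over the control pools (a few items are not reported here), with up to 4 called genes per list and comparison. Ligands and receptors of called members, Cxcl10, Tnfsf10, Il1b, Il16, Ccl28, Il20rb and Il11 were named after their values were seen. The members and lists were chosen with earlier results of these data known.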

Additional observations from a re-analysis of the deposited data

Results flagged for a closer look

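Il1rap differed between the models in 4V ChP by a test of the difference itself. Its log2 fold change was -0.70 (SE 0.14) after Cre-Tat and 0.30 (SE 0.12) in Otx2(+/-), and the difference of -1.01 (SE 0.18) had an edgeR adjusted p of 0.016 among 76 members tested in that fit, with adjustment over all genes. The range without each pool in turn was -1.12 to -0.89, with the largest adjusted p at 0.0950. Both Cre 4V pools lay below both Veh 4V pools, and both Otx2(+/-) pools lay above both WT pools. The models also differ in strain, sequencing run and treatment, and these cannot be told apart.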

How the results depend on the processing

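Apart from the recorded attachment, no named member turned around in 394 values under the alternatives, 316 of them past the threshold in the main direction. Of 33 results, 11 were past it under every one of these alternatives, for Ccl9, Il1rap and Tnfrsf11b in LV and 4V, Ccl6, Ccr2 and Cxcl13 in 4V, Il17re in Otx2(+/-) and Cxcl12 between ventricles.

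The count of members called, against 8 in Cre LV, 17 in Cre 4V, 2 in Otx2(+/-), 0 in Otx2(+/AA), 5 between ventricles, and 0 and 1 for the interactions with ventricle and model, moved as follows, and the cause was not tested. DESeq2 called 8 in Cre 4V and 3 for the model interaction. With no filter there were 14 in Cre LV, 3 in Otx2(+/AA), 12 between ventricles, 1 for the ventricle interaction and 7 for the model interaction. A mean count above 10 left 3 between ventricles, and counts summed over transcripts left 3 between ventricles and 1 in Otx2(+/-). With the pool letter as a block there were 14 in Otx2(+/-), 4 in Otx2(+/AA), 11 between ventricles and 6 for the model interaction, and the calls of all 33 named results were kept. The pool letters gave correlations of -0.146 to 0.38 between groups and were taken to share only a letter. Without each pool in turn the count was 3 to 13 in Cre LV, 11 to 17 in Cre 4V, 2 to 8 in Otx2(+/-), 0 to 6 in Otx2(+/AA), 3 to 8 between ventricles, 0 to 0 and 0 to 3 for the interactions, with a lone pool assumed to vary like the others.

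With files as recorded, whose groups mix libraries of both treatments by number, members called were 30 in Cre LV, 31 in Cre 4V, 20 between ventricles, and 9 and 15 for the interactions. The log2 fold changes of 15 results turned around. In Cre LV these were Ccl6 -0.48, Ccl9 0.43, Tnfrsf11b -1.06, Ccr2 -0.10 and Il1rap 0.22. In Cre 4V they were Ccl6 -0.98, Ccl9 0.98, Tnfrsf11b -1.64, Ccr2 -0.36, Il1rap 0.17 and Il7r -0.91. Between ventricles they were Cxcl12 -0.14, Tnfsf9 0.39, Tnfrsf11a -0.088 and Tnfrsf21 -0.0013.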
